A study of Homo sapiens with 6 samples.

Results

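The genes described here are 10 members of the YAP/TEAD system, chosen by symbol: YAP1, WWTR1, TEAD1, TEAD4, CCN1, CCN2, ANKRD1, AMOTL2, AJUBA and LATS2. They are 10 of the 25349 genes in the count table, and all 10 passed the filter on low counts that left 14661 genes for testing. The cells were SCC-9, an established human line that came from a squamous carcinoma of the tongue, grown here in medium with hydrocortisone. Cells of the siE7 group received an siRNA against exon 7 of MKI67, which encodes the proliferation antigen Ki67, and those of the siNC group a nonspecific siRNA. Both groups were transfected at 10 nM with Lipofectamine 3000 on Day 0 and again on Day 2, and polyadenylated RNA was sequenced from total RNA of Day 4, with 3 libraries per group. The comparison addresses which genes change with the siRNA against exon 7, meant to deplete Ki67 with exon 7. Counts per gene cannot separate MKI67 RNA with exon 7 from RNA without it. Effects of the siRNA itself and of Ki67 loss cannot be told apart in these libraries. Of the 3 exon 7 siRNAs in the study's methods, the one used for these libraries is not named in the sources used here.

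YAP1 encodes YAP and WWTR1 encodes TAZ, paralogous co-activators that carry no DNA-binding domain of their own. In the nucleus they bind TEAD factors on DNA and activate genes of growth, adhesion and the matrix, whereas phosphorylation by the LATS kinases of the Hippo pathway keeps them in the cytoplasm. Several direct targets, among them AMOTL2, AJUBA and LATS2, encode proteins that act back on the pathway, and YAP and TAZ activity is commonly raised in squamous cell carcinomas. RNA levels say nothing of the phosphorylation or location of YAP and TAZ, and no protein was measured in these libraries. In bulk RNA, fewer cells of a kind and less RNA per cell cannot be told apart.

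The libraries held between 25608192 and 29550264 counts each. MKI67 itself stood at 1059 ± 26.7 CPM (counts scaled to library size and composition, SD, n = 3) with siNC and at 115 ± 8.70 CPM with siE7, so the targeted gene was low in each siE7 library. Over the 14661 tested genes, 2639 were higher and 2351 lower with siE7, called at 0.05 after Benjamini-Hochberg adjustment of edgeR's quasi-likelihood p-values. In the principal component analysis the first component (63.6% of the variance) separated the groups and the second (17.8%) separated siE7 replicate 1 from the other 5 libraries. Without that library the same test called far more of all tested genes, 28.9% higher and 29.5% lower, and the calls that it changes are given beside the genes. Squamous markers (KRT5, KRT14, KRT6A, KRT17, TP63, DSG3, SFN and ITGB4) were all expressed and summed to between 23897 and 25371 CPM with siNC and between 21675 and 28343 CPM with siE7, with 1 of 8 higher and 4 lower by the test. Fibroblast markers summed to between 16.5 and 24.2 CPM in the 6 libraries, most of it COL1A1. COL1A1 averaged 15.3 CPM with siNC and 18.3 CPM with siE7, and COL1A2 2.17 and 1.63 CPM. Neither was called, at log2 fold changes of 0.26 and -0.40. The endothelial markers and the leukocyte marker CD68 stayed under 1 CPM. Of the other fibroblast markers, COL3A1 and LUM were at 0 counts in 4 and 5 of the 6 libraries. PDGFRA and PDGFRB held at most 3 and 4 counts in any library. DCN held 0, 1 and 2 counts with siNC and 8, 11 and 19 with siE7. DCN was too low for the test, and the part of such cells in the results was not tested.

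The letters that TEAD factors bind stand before several of these genes, and the sequences of these members are shown so that the letters can be read beside each gene's values. RefSeq promoter windows (GRCh38.p14) of 250 bases before to 50 bases after a transcription start were found for 7 of the 10 members, in 10 windows. Windows of CCN1, TEAD1 and TEAD4 were not matched. The TEAD core was searched as GGAATG on either strand, and the AP-1 motif, which often lies near TEAD sites, as TGANTCA, which reads the same on both strands. In the lines that follow, read 5′ to 3′ on the strand of the gene, capitals mark these letters, and only bases before the start are printed.
CCN2, chr6:131951373-131951622, minus strand: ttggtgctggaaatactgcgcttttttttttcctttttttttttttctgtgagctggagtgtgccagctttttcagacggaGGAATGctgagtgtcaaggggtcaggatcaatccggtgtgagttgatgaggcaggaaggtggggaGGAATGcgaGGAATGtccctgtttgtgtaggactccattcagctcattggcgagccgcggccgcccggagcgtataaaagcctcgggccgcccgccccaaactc
ANKRD1, chr10:90921088-90921337, minus strand: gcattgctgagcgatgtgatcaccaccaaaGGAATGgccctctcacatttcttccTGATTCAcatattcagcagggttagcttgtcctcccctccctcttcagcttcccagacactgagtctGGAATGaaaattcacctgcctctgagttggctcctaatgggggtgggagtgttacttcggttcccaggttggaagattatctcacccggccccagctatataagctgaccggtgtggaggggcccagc
YAP1, chr11:102110273-102110302, plus strand: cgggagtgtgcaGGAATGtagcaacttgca
AMOTL2, chr3:134374499-134374528, minus strand: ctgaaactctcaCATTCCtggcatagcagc
AJUBA, chr14:22976884-22976913, minus strand: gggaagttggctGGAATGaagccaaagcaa

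Of the 7 members with a window, 6 held at least 1 TEAD core, in 6 of the 10 windows. CCN2 held 3, which start 169, 104 and 95 bases before the transcription start. ANKRD1 held 2, at 220 and 128 bases before the start, with the AP-1 letters TGATTCA between them at 195 bases. YAP1 held 1 core at 162 bases, AMOTL2 1 core on the opposite strand at 69 bases and AJUBA 1 core at 59 bases. The AMOTL2 and AJUBA cores belong to RefSeq starts that lie inside the annotated genes, and the windows at their other starts held none. LATS2 held 1 core within the transcribed part, 10 bases past the start, and neither window of WWTR1 held one.

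Among all 35116 RefSeq windows, 14.0% held a TEAD core, 1.37% held 2 or more, 0.128% held 3 or more, 7.71% held the AP-1 motif and 1.45% held both. Of the members with more than 1 core, ANKRD1 rose with siE7 and CCN2 had no call. Counted by gene, a TEAD core was found in 15.2% of the 10538 tested genes with a window. It was found in 14.6% of those higher with siE7, in 17.7% of those lower and in 14.7% of those without a call. Among DEGs the share with a TEAD core was 17.6% of the 660 higher and 17.6% of the 495 lower genes, so it did not differ by direction there. The AP-1 motif was found in 9.24% of the higher and 12.7% of the lower DEGs. Its share was 7.17% of all tested genes with a window, 7.02% of those called higher, 9.26% lower and 6.67% without a call. Differences between these shares were not tested. A match to these letters is a description of the sequence, and distal enhancers, where most TEAD binding is known to occur, were not searched.

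**Figure D1:**
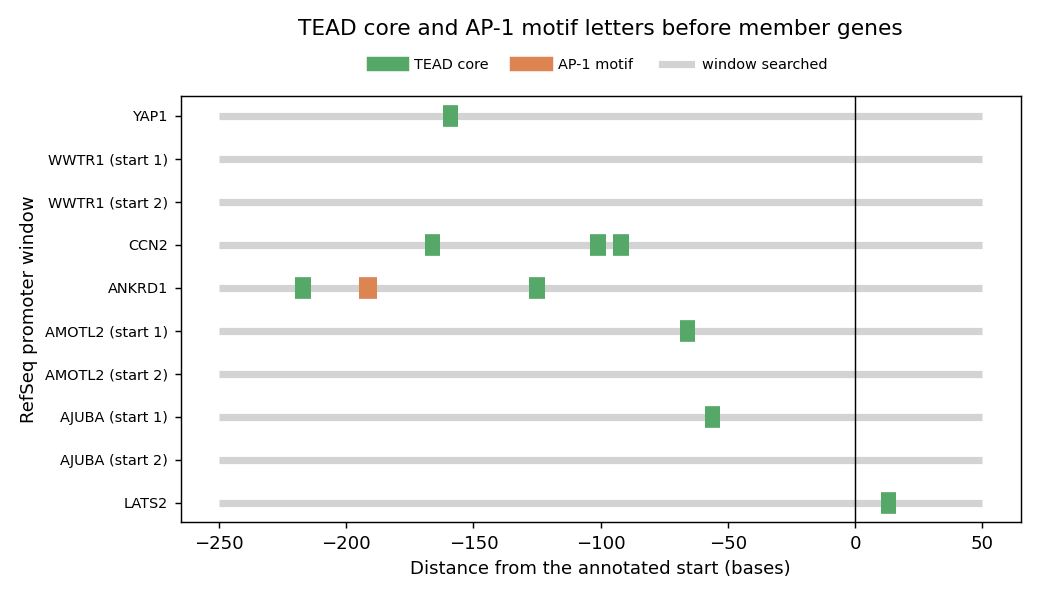
Positions of the TEAD core (green) and of the AP-1 motif (orange) in the 10 RefSeq windows of 7 members; the horizontal axis gives the distance from the annotated start in bases, and each grey bar is 1 window of 250 bases before to 50 after the start. CCN2 holds 3 cores, ANKRD1 holds 2 cores and the single AP-1 motif, and both windows of WWTR1 are empty.

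With siE7, 1 of the 10 members was higher and 4 were lower by edgeR's adjusted p-value, beside 18.0% higher and 16.0% lower of all tested genes. ANKRD1 rose, whereas CCN1, AJUBA, TEAD4 and TEAD1 fell, and YAP1, WWTR1, CCN2, AMOTL2 and LATS2 had no call. ANKRD1 and CCN1 were also differentially expressed genes (DEGs), with a log2 fold change beyond 1. DEGs made up 7.38% (higher) and 4.84% (lower) of all tested genes. The 3 siE7 libraries stood wholly above the 3 siNC libraries for 1 member and wholly below them for 5, and over all tested genes these shares were 24.9% and 22.7%. The members' median log2 fold change was -0.47, against 0.08 over all tested genes, with 3 members above 0 and 7 below. The labels do not say whether the replicates were separate cultures, so the p-values measure the spread between these libraries, which may be technical.

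**Figure D2:**
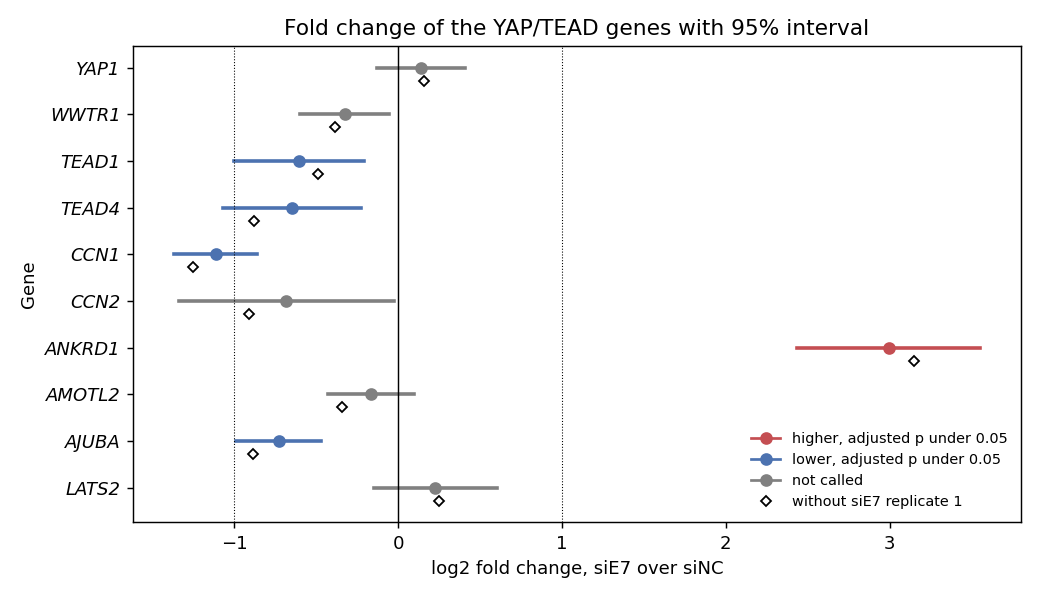
Log2 fold change of the 10 members, siE7 over siNC, with 95% confidence intervals from edgeR's quasi-likelihood fit (n = 3 libraries per group), coloured by call; values below 0 are lower with siE7. ANKRD1 stands alone on the right at 2.99, and the interval of CCN1 (-1.37 to -0.86) lies farthest to the left of the 4 members called lower.

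YAP1 (chr11:102110447-102233424, plus strand, GENCODE annotation on GRCh38) stood at 54.2, 47.9 and 52.1 CPM in siNC replicates 1 to 3 and at 49.998, 62.1 and 57.7 CPM in siE7 replicates 1 to 3. The groups overlapped, since siE7 replicate 1 lay among the siNC libraries. The means were 51.4 ± 3.17 and 56.6 ± 6.12 CPM (SD, n = 3), and the log2 fold change of 0.14 (95% confidence interval -0.13 to 0.41) had an adjusted p of 0.404 by edgeR's quasi-likelihood test.

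WWTR1 (chr3:149517235-149736714, minus strand) stood at 28.2, 27.0 and 25.5 CPM with siNC and at 21.4, 20.8 and 22.2 CPM with siE7. All 3 siE7 libraries lay below all 3 siNC libraries, yet the difference missed the threshold. Its log2 fold change was -0.33 (standard error 0.125, 95% confidence interval -0.60 to -0.05), with an adjusted p of 0.0621 in edgeR's quasi-likelihood test. The call was made in 3 alternatives, with an adjusted p of 0.0328 by DESeq2, of 0.0417 by edgeR with RLE scaling, and of 4.6e-04 by edgeR without siE7 replicate 1. An antisense gene, WWTR1-AS1, overlaps WWTR1 and held 10, 14 and 14 counts with siNC and 55, 14 and 21 with siE7, against at least 574 counts of WWTR1 in each library.

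The ratio of WWTR1 to YAP1 counts within a library does not depend on the scaling between libraries. It was 0.521, 0.564 and 0.490 with siNC and 0.427, 0.335 and 0.385 with siE7, so each siE7 library held less TAZ RNA relative to YAP RNA than each siNC library. The ratio was 0.726-fold that of siNC, a log2 difference of -0.46, with p = 0.1 in the exact two-sided permutation test, the smallest value that 3 libraries against 3 can give, and 0.5 after adjustment over 5 pairs of genes.

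TEAD1 and TEAD4 encode DNA-binding partners of YAP and TAZ, and both fell. TEAD1 (chr11:12674421-12944737, plus strand) stood at 17.9, 17.3 and 18.6 CPM with siNC and at 8.70, 12.8 and 13.9 CPM with siE7. The groups did not overlap, and siE7 replicate 1 was the lowest library. The mean fell from 17.9 ± 0.631 to 11.8 ± 2.72 CPM (SD, n = 3), which is -0.61 ± 0.181 (standard error) as a log2 fold change, with an adjusted p of 0.0235 in edgeR's quasi-likelihood test.

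TEAD4 (chr12:2959330-3040676, plus strand) stood at 11.8, 12.0 and 14.9 CPM with siNC and at 10.1, 8.22 and 6.48 CPM with siE7. Here too the groups were apart, but siE7 replicate 1 was the highest siE7 library, the opposite of its place for TEAD1. Its log2 fold change of -0.65 ± 0.192 (standard error) had an adjusted p of 0.0231 in edgeR's quasi-likelihood test. Both calls depended on the libraries kept. TEAD1 missed the threshold without siNC replicate 1, 2 or 3, at log2 fold changes of -0.61, -0.64 and -0.59. TEAD4 missed it without siNC replicate 1, 2 or 3 or siE7 replicate 2 or 3, at -0.71, -0.70, -0.54, -0.65 and -0.50. Without composition scaling both also lost the call, TEAD1 at -0.43 and TEAD4 at -0.49.

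The other TEAD paralogs had no call with all 6 libraries. TEAD3 averaged 39.1 CPM in both groups, and its direction turned with the scaling, with log2 fold changes of -0.0021 as tested, 0.02 with upper-quartile scaling and 0.16 without composition scaling. Without siE7 replicate 1 it was called lower at -0.18 (adjusted p = 0.0495, edgeR). TEAD2 was at 16.3 ± 1.13 and 18.4 ± 2.79 CPM (log2 fold change 0.17, adjusted p = 0.42, edgeR). The ratio of TEAD4 to TEAD1 within a library was 0.661, 0.696 and 0.801 with siNC and 1.15, 0.644 and 0.468 with siE7. The siE7 libraries thus spread over a wider range than the siNC libraries on both sides, and the exact permutation test gave p = 0.9.

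**Figure D3:**
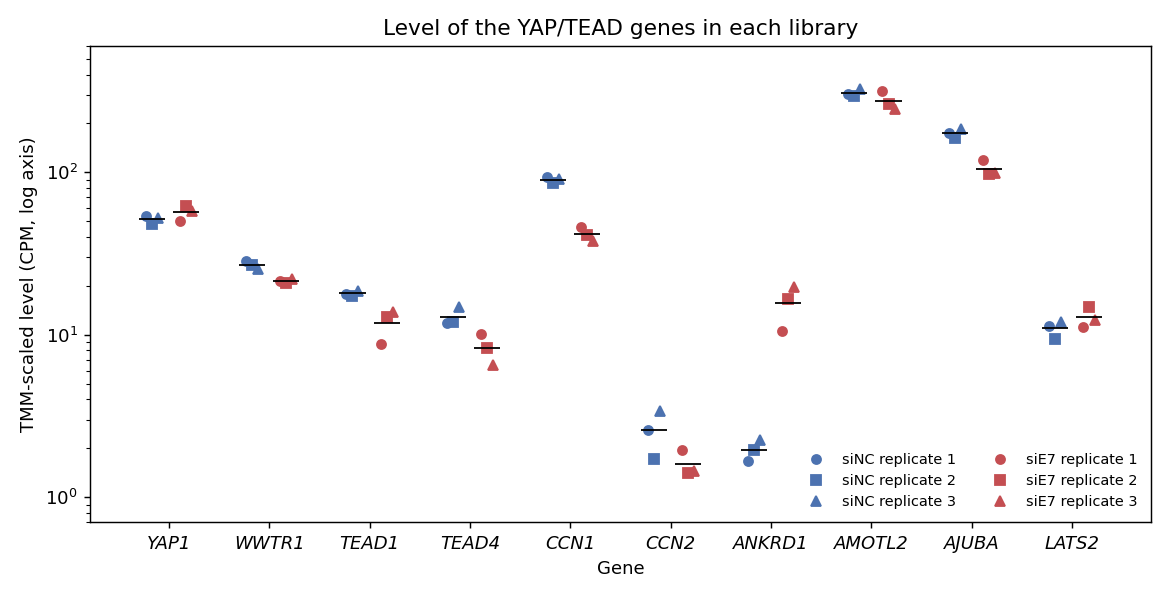
Level of each of the 10 members in each of the 6 libraries, in TMM-scaled CPM on a log axis, with siNC libraries in blue and siE7 libraries in red and a bar at the mean of each group (n = 3). The siE7 points of ANKRD1 lie between 10.5 and 19.6 CPM, above every siNC point, and those of CCN1 lie between 37.8 and 45.8 CPM, below every siNC point.

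CCN1, CCN2 and ANKRD1 are the targets most often read as a measure of YAP and TAZ activity, and of these CCN1 fell, ANKRD1 rose and CCN2 had no call. CCN1 (chr1:85580761-85584589, plus strand) encodes CYR61, a secreted matrix protein that binds integrins. It stood at 93.9, 86.0 and 90.6 CPM with siNC and at 45.8, 41.2 and 37.8 CPM with siE7. The groups were far apart beside the spread within them. The mean fell from 90.1 ± 3.95 to 41.6 ± 4.03 CPM (SD, n = 3), which is 2.17-fold lower. The log2 fold change of -1.12 ± 0.117 (standard error) had an adjusted p of 4.8e-05 in edgeR's quasi-likelihood test. The call held in each alternative, between -1.25 and -0.95, although without composition scaling the value of -0.95 no longer passed the threshold of a DEG.

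CCN2, its paralog, encodes connective tissue growth factor. Its counts (chr6:131948176-131951372, minus strand) were low throughout, with 64, 43 and 90 in the siNC libraries and 58, 39 and 44 in the siE7 libraries. These are 2.59, 1.72 and 3.41 CPM against 1.96, 1.41 and 1.44 CPM, and siE7 replicate 1 lay above siNC replicate 2, so the groups overlapped. The log2 fold change of -0.68 had a wide interval (-1.34 to -0.03) and an adjusted p of 0.0994 in edgeR's quasi-likelihood test. Without siE7 replicate 1 it was -0.91 with an adjusted p of 0.0085.

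The ratio of CCN1 to CCN2 within a library was 35.9, 49.4 and 26.4 with siNC and 23.2, 28.8 and 25.97 with siE7. The groups overlapped, and the log2 difference of -0.48 had p = 0.2 in the exact permutation test. A difference between the paralogs in their response was not shown.

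ANKRD1 (chr10:90912096-90921087, minus strand) encodes a nuclear ankyrin repeat protein known best from stressed heart muscle, where it is also called CARP. With siNC it stood at 1.66, 1.96 and 2.23 CPM (41, 49 and 59 counts). With siE7 it stood at 10.5, 16.7 and 19.6 CPM (312, 460 and 599 counts). Every siE7 library held more than every siNC library, and siE7 replicate 1 was the lowest of the 3. The mean rose from 1.95 ± 0.287 to 15.6 ± 4.63 CPM (SD, n = 3), 7.96-fold (95% confidence interval 5.40 to 11.7), or 2.99 as a log2 fold change, with an adjusted p of 1.2e-05 in edgeR's quasi-likelihood test. In the alternatives the log2 fold change stayed between 2.80 and 3.17, and every one of them kept the call. No other annotated gene overlaps ANKRD1, CCN1 or TEAD4.

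AMOTL2, AJUBA and LATS2 are targets whose products act back on YAP and TAZ. AMOTL2 (chr3:134355347-134375479, minus strand) encodes an angiomotin-like protein that binds YAP at cell junctions. It stood at 305, 294 and 326 CPM with siNC and at 315, 264 and 244 CPM with siE7. The siE7 libraries 2 and 3 lay below all siNC libraries, and siE7 replicate 1 lay among them. The log2 fold change was -0.17 (95% confidence interval -0.43 to 0.09, adjusted p = 0.300, edgeR's quasi-likelihood test). Without siE7 replicate 1 it was -0.34 with an adjusted p of 3.5e-06.

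AJUBA (chr14:22971177-22982551, minus strand) encodes a LIM protein that binds and restrains the LATS kinases. It stood at 174, 163 and 186 CPM with siNC and at 119, 97.4 and 99.6 CPM with siE7. No siE7 library reached the lowest siNC library. The mean fell from 174 ± 11.5 to 105 ± 11.6 CPM (SD, n = 3), which is 39.7% lower. The log2 fold change of -0.73 ± 0.118 (standard error) had an adjusted p of 8.5e-04 in edgeR's quasi-likelihood test. The call held in each alternative, between -0.88 and -0.57. A gene on the same strand, ENSG00000259132, overlaps AJUBA and held between 51 and 105 counts per library.

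LATS2 (chr13:20973036-21061586, minus strand) encodes a kinase that phosphorylates YAP and TAZ. It stood at 11.3, 9.45 and 12.0 CPM with siNC and at 11.2, 14.9 and 12.3 CPM with siE7. The groups overlapped at siE7 replicate 1, and the log2 fold change of 0.23 (95% confidence interval -0.15 to 0.60) had an adjusted p of 0.328 in edgeR's quasi-likelihood test. Its paralog LATS1 averaged 7.78 ± 2.32 and 9.77 ± 1.36 CPM, also without a call (log2 fold change 0.33, adjusted p = 0.281). The ratio of LATS2 to LATS1 gave p = 0.6 and that of AMOTL2 to AMOTL1 p = 0.8 in the exact permutation test, and both pairs overlapped between groups.

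**Figure D4:**
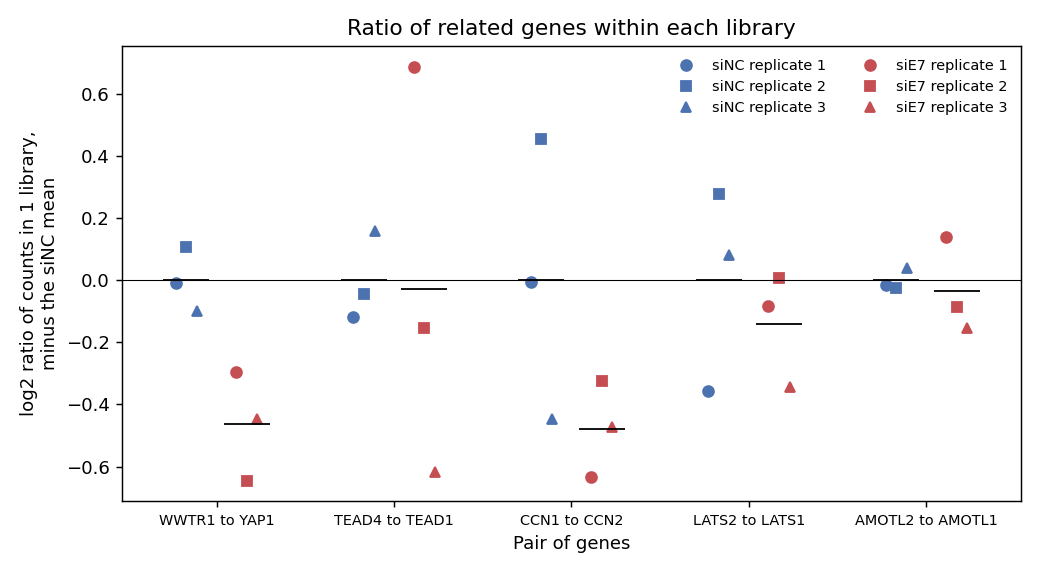
Log2 ratio of counts of 5 pairs of related genes within each library, minus the mean of the 3 siNC libraries of that pair, with circles, squares and triangles for replicates 1, 2 and 3 and a bar at each group's mean. The siE7 libraries lie below all siNC libraries for WWTR1 to YAP1 alone among the 5 pairs, and they spread widest for TEAD4 to TEAD1.

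Levels can be compared between genes once divided by the length of the merged exons. With siNC the order in CPM per kilobase ran from AMOTL2 (47.6 ± 2.50) over AJUBA (29.6 ± 1.95) and CCN1 (24.4 ± 1.07) to YAP1 (8.14 ± 0.503), TEAD4 (5.68 ± 0.749) and WWTR1 (3.22 ± 0.165). LATS2 (1.95 ± 0.235), TEAD1 (1.68 ± 0.0589), CCN2 (1.10 ± 0.361) and ANKRD1 (1.09 ± 0.160) followed. The libraries of LATS2 and TEAD1 overlapped, as did those of CCN2 and ANKRD1, so their order within these pairs is not resolved. With siE7, ANKRD1 stood at 8.71 ± 2.58 CPM per kilobase, at rank 5 in place of 10, and overlapped with YAP1 at 8.97 ± 0.970. CCN2 was at 0.686 ± 0.131, at rank 10, and its libraries overlapped with those of TEAD1 at 1.10 ± 0.255. AMOTL2, AJUBA and CCN1 held ranks 1 to 3 in both groups.

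The kinases and adaptors upstream of YAP and TAZ were followed as a list of 31 genes, of which 29 were tested. Here 0 were higher and 7 (24.1%) were lower by edgeR's quasi-likelihood test, beside 18.0% higher and 16.0% lower of all tested genes, with a median of -0.19 on the log2 scale. DESeq2 also found 0 higher, beside 12.7% of all genes to which it gave an adjusted p-value. RASSF1 had no call at a log2 fold change of 0.39 (adjusted p = 0.0785, edgeR) and is named after its values were seen. The core kinases had no call with all 6 libraries. STK3 and STK4, the MST kinases, had log2 fold changes of 0.35 (adjusted p = 0.19) and 0.05 (0.79), and their adaptor SAV1 -0.03 (0.90). The LATS co-factors MOB1A and MOB1B had -0.13 (0.64) and 0.09 (0.75). STK3 stood at 37.9, 39.6 and 41.5 CPM with siNC and at 32.9, 62.5 and 56.8 CPM with siE7, so siE7 replicate 1 lay below and the other siE7 libraries above all siNC libraries. Without siE7 replicate 1 it was called higher at 0.53 (adjusted p = 8.3e-08, edgeR), and 11 genes of this list were lower and 3 higher, beside 29.5% and 28.9% of all tested genes in that fit.

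WWC3, a relative of the KIBRA scaffold that promotes LATS activity, fell from 44.5 ± 2.34 to 14.2 ± 2.04 CPM (log2 fold change -1.65, adjusted p = 1.3e-05, edgeR). FRMD6, a FERM-domain protein, fell from 37.1 ± 2.57 to 11.8 ± 2.86 CPM (-1.65, 6.4e-05). NF2, which encodes Merlin, fell from 125 ± 4.55 to 83.7 ± 12.9 CPM (-0.57, 0.0052). The kinase gene MAP4K4 fell by 0.53 on the log2 scale, the polarity gene LLGL1 by 0.70 and the protocadherin gene FAT1 by 0.54.

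Partners and negative regulators of YAP, TAZ and TEAD formed a list of 21 genes, of which 20 were tested. Of these, 2 were higher and 6 lower by edgeR's quasi-likelihood test, beside 18.0% and 16.0% of all tested genes, with a median log2 fold change of -0.13. VGLL4, which competes with YAP for TEAD, rose from 15.1 ± 1.00 to 31.3 ± 1.53 CPM (log2 fold change 1.05, adjusted p = 1.5e-04, edgeR). VGLL3, another TEAD-binding vestigial-like gene, fell from 25.7 ± 2.81 to 15.2 ± 2.92 CPM (-0.76, 0.0052). VGLL4 stayed above 0 and VGLL3 below 0 under each scaling tried.

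RUNX1 encodes a transcription factor that can bind YAP, and it fell from 49.2 ± 4.73 to 25.8 ± 2.16 CPM (log2 fold change -0.93, adjusted p = 3.1e-04, edgeR). AMOT, the founding angiomotin, fell from 4.57 ± 0.720 to 1.97 ± 0.0512 CPM (-1.21, 0.0016), whereas its paralog AMOTL1 had no call at -0.14 (0.295), with all 3 siE7 libraries below all siNC libraries. AMOTL1 turned to 0.03 without composition scaling and was called lower at -0.22 (adjusted p = 7.5e-04, edgeR) without siE7 replicate 1. PTPN14, a phosphatase that binds YAP, fell by 0.58 on the log2 scale (0.0021). Of the LIM proteins related to AJUBA, WTIP rose by 0.60 (0.013), a call lost without siNC replicate 1 or 2 at 0.57 and 0.56. LIMD1 had no call at -0.11 (0.53), which turned to 0.06 without composition scaling, and was called lower at -0.25 (adjusted p = 0.0064, edgeR) without siE7 replicate 1. Without that library, 13 genes of this list were lower and 2 higher, beside 29.5% and 28.9% of all tested genes.

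Further targets of YAP and TAZ formed a list of 17 genes, of which 16 were tested. Here 12 (75.0%) were lower and 2 (12.5%) higher by edgeR's quasi-likelihood test, beside 16.0% and 18.0% of all tested genes. Of the 16, 7 were DEGs with lower levels, beside 4.84% of all tested genes. The list's median log2 fold change was -0.88. Its genes were chosen with earlier results of these data known, so these shares describe the list and are no test of it. AXL, a receptor tyrosine kinase, fell from 418 ± 26.5 to 94.8 ± 18.5 CPM (log2 fold change -2.14, adjusted p = 3.1e-06, edgeR). NT5E, the surface nucleotidase CD73, fell from 90.8 ± 2.62 to 20.2 ± 3.79 CPM (-2.17, 3.4e-06). MYOF, a membrane repair protein, fell from 385 ± 10.7 to 143 ± 6.59 CPM (-1.42, 4.8e-06).

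ASAP1, which acts on ARF GTPases at focal adhesions, fell by 1.21 on the log2 scale, and the kinase gene NUAK2 fell by 1.42. The 2 genes of the list called higher were CCDC80 (log2 fold change 0.72, adjusted p = 4.7e-04, edgeR) and IGFBP3 (0.42, 0.024). FOXF2 was also above 0, at 0.39, but had no call (adjusted p = 0.104, edgeR). All 3 of its siE7 libraries lay above all 3 siNC libraries. These 3 genes are named after their values were seen. CCDC80 kept its call in each alternative, whereas IGFBP3 lost it in 7, with DESeq2, with no filter, with the replicate block, without siNC replicate 1, 2 or 3 and without siE7 replicate 3. PTPN14 stands in this list as well as among the partners. Most of these targets fell, as CCN1 did, and ANKRD1 is the only target among the members and this list with a log2 fold change above 1.

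**Figure D5:**
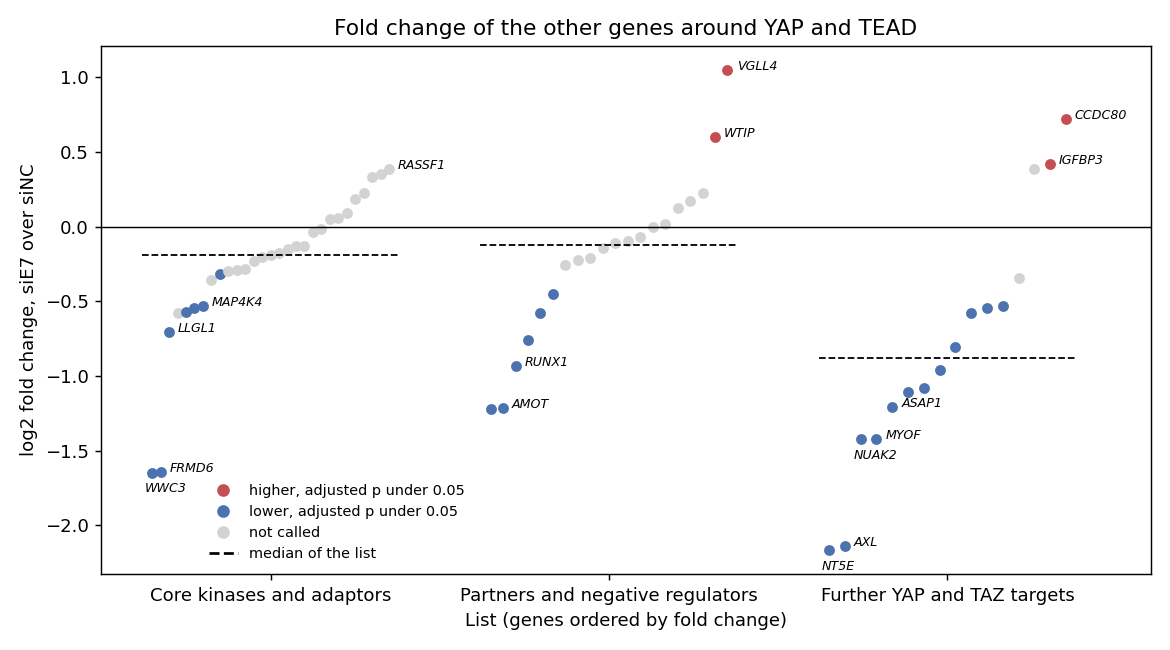
Log2 fold change, siE7 over siNC, of the tested genes of 3 lists around YAP and TEAD (29, 20 and 16 genes), ordered within each list, with genes higher at an adjusted p-value under 0.05 in red, lower in blue and not called in grey; the dashed line is the median of the list. The medians lie at -0.19, -0.13 and -0.88, and in the third list 12 of the 16 points are blue. The lists were chosen with earlier results of these data known.

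Within the siE7 group, replicate 1 stood apart from replicates 2 and 3 for part of the members. Its level against their mean was lower by 0.78 on the log2 scale for ANKRD1 and by 0.61 for TEAD1, and higher by 0.46 for CCN2, by 0.45 for TEAD4 and by 0.31 for AMOTL2. For WWTR1 the difference was -0.01. Without it, 7 members were lower with siE7 in place of 4, the added ones being WWTR1, CCN2 and AMOTL2, and ANKRD1 stayed the single member higher, beside 29.5% lower and 28.9% higher of all tested genes in that fit. The part of this library in the calls of these 3 genes was not tested beyond leaving it out.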

How the data were processed

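RNA sequencing of SCC-9 cells gave 6 libraries, 3 per group. The authors prepared stranded libraries of polyadenylated RNA and sequenced paired ends on a NovaSeq 6000. The authors deposited counts of reads per gene as whole numbers without normalization, and these were taken as they stood. The submitters' processing notes name HISAT2, DESeq2 and GRCh38 without versions. The counting tool, the annotation release and whether counting was stranded are not given in the sources used here, so reads of overlapping genes cannot be told apart with certainty. The titles gave the group of each sample.

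Genes were filtered with filterByExpr, TMM scaling was applied, and siE7 was set against siNC over all 14661 kept genes by the quasi-likelihood F-test of edgeR 4.0.16 (R 4.3.3) with robust dispersions and Benjamini-Hochberg adjustment. The threshold was an adjusted p-value under 0.05, and a DEG also had a log2 fold change beyond 1. CPM values are TMM-scaled. Exon lengths and positions come from GENCODE v44 on GRCh38, which matched 25283 of 25349 identifiers, and lengths were taken over merged exons. For ratios within a library 0.5 counts were added to each gene, and an exact two-sided permutation test was used, which cannot give a p under 0.1 with 3 libraries against 3. Tests were checked on simulated counts. Further steps used Python 3.11.15 with pandas 2.3.3, numpy 2.4.6 and, for figures, matplotlib 3.10.9.

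The members, the 3 lists of other pathway genes and the cell type markers were chosen with earlier results of these data known, so no test was made over a list. Genes named are the 10 members, MKI67, 14 paralogs and core genes (LATS1, TEAD2, TEAD3, AMOT, AMOTL1, LIMD1, WTIP, STK3, STK4, SAV1, MOB1A, MOB1B, NF2 and VGLL4), and in each list the 5 genes with the smallest p-values among those with an adjusted p-value under 0.05. PALS1 was matched by its gene identifier, VGLL2 was not analysed here, and MAP4K1, DCHS1 and RBMS3 did not pass the filter. The labels do not say whether same-numbered libraries were handled together, and the main test used no pairing. Deviations of same-numbered libraries from their group means had correlations of -0.0393, -0.0205 and -0.0521. These values show no pairing but cannot exclude one, since siE7 replicate 1 stood apart from the other siE7 libraries. Alternatives were DESeq2 1.42.0, edgeR with RLE factors, upper-quartile factors or plain library totals (no composition scaling), keeping all genes with a count, keeping genes with 10 or more counts in every library, a replicate block, 5 counts added in ratios, and each library left out in turn.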

Additional observations from a re-analysis of the deposited data

How the results depend on the processing

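CCN1, ANKRD1 and AJUBA kept their direction and call under DESeq2, the 3 other scalings, both other filters, the replicate block and each library left out. Leaving out composition scaling moved the median log2 fold change of all tested genes up by 0.169 and the share of DEGs that were higher from 60.4% to 76.2%. It called 27.5% of all tested genes higher and 11.1% lower, beside 18.0% and 16.0% with TMM scaling. In that setting 2 members were lower, 1 was a DEG (beside 1532 higher and 478 lower DEGs of 14661 tested genes), and the members' median was -0.29. Of the upstream genes 1 was higher, and TEAD1 at -0.43 and TEAD4 at -0.49 had no call. The same setting also turned TEAD3 to 0.16, AMOTL1 to 0.026, LIMD1 to 0.056, SAV1 to 0.14 and MOB1A to 0.050. The members' median was -0.53 with DESeq2 and -0.52 with RLE scaling, where WWTR1 passed the threshold at -0.38 in both. TEAD3 was at 0.024 with upper-quartile scaling and at 0.022 with at least 10 counts in every library, and STK4 at -0.0078 with DESeq2. Of the further targets, 1 was higher with DESeq2, with no filter on low counts and with the replicate block. Beside this, DESeq2 called 12.7% higher of all genes to which it gave an adjusted p-value. The other 2 settings called 11.6% and 17.7% of all tested genes higher. The replicate block changed no other call of the members or named genes and moved no other count of a list by more than 1.5 times, and its members' median was -0.48.

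With 1 library left out, the number of lower members ranged from 2 (without siNC replicate 1, 2 or 3) to 7 (without siE7 replicate 1), and the median from -0.49 to -0.40. Over all tested genes, 10.5%, 10.5% and 10.3% were lower without siNC replicates 1, 2 and 3, and 29.5% without siE7 replicate 1. The share of all tested genes called higher ranged from 10.6% to 28.9%, the highest also without siE7 replicate 1. Log2 fold changes then ranged from -0.38 to -0.30 for WWTR1, from -0.74 to -0.49 for TEAD1, from -0.88 to -0.50 for TEAD4, from -0.91 to -0.43 for CCN2 and from -0.34 to -0.091 for AMOTL2. Upstream genes ranged from 0 to 3 higher and 6 to 11 lower, partners from 1 (without siNC replicate 1 or 2) to 2 higher and 5 to 13 lower, and further targets from 1 (without siNC replicate 1, 2 or 3 or siE7 replicate 3) to 3 higher. The highest counts of lower genes, and of higher upstream genes and targets, came without siE7 replicate 1. Values that turned in sign ranged from -0.18 to 0.061 for TEAD3, from -0.035 to 0.13 for STK4, from -0.17 to 0.11 for SAV1, from -0.33 to 0.016 for MOB1A and from -0.037 to 0.20 for MOB1B. The log2 ratio of TEAD4 to TEAD1 ranged from -0.39 to 0.27, and that of AMOTL2 to AMOTL1 from -0.12 to 0.026. The causes of these changes were not tested. CCN2 held 39 to 90 counts per library and ANKRD1 41 to 59 with siNC, so their values are the ones set by the fewest counts among the members.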
